A study of Mus musculus with 18 samples.

Results

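The oligosaccharyltransferase (OST) subunit genes were followed in RNA-seq of purified splenic B cells from control and *Zbtb24* B-cell-specific knockout (B-CKO) mice. OST is the enzyme of the endoplasmic reticulum (ER) membrane that moves a preassembled sugar tree from a lipid carrier, dolichol, to asparagines of proteins entering the secretory pathway. It exists as a pair of related complexes. The one built on STT3A sits at the protein translocon and glycosylates chains as they are made, and OSTC and KRTCAP2 belong to this form. The one built on STT3B acts on sites that were passed over and carries MAGT1 or TUSC3. RPN1, RPN2, DDOST, DAD1, TMEM258 and OST4 are found in both. B cells that become antibody-secreting cells enlarge their ER, and antibodies are glycoproteins.

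Of 16545 genes in the table, 10 were followed: *Ostc* and 9 partners, *Stt3a*, *Stt3b*, *Rpn1*, *Rpn2*, *Ddost*, *Dad1*, *Tmem258*, *Krtcap2* and *Magt1*. The partners were taken as subunits of the enzyme. *Ostc* was chosen by its measured fall in B-CKO cells, so its difference between genotypes is described here without a test and supports nothing. The question asked of the partners was whether they move when *Ostc* RNA falls. All 10 members were above 0 in every library, so none was lost to a filter on low values.

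There were 18 libraries in 6 groups of 3, from control (CON) and B-CKO (BKO) cells taken before culture (0 h, D0) and after 24 h (D1) and 48 h (D2) with lipopolysaccharide (LPS), a bacterial ligand that activates B cells. By the study's methods, both genotypes were C57BL/6 littermates that carried a Cre active in B cells. The B-CKO mice also carried *Zbtb24* loxP/loxP, in which exon 2 with the translation start is removed, and the controls were *Zbtb24*+/+ unless stated otherwise. Whether the control mice of these libraries carried the Cre was not tested. Each library came from 1 mouse. Whether a replicate number stands for the same mouse at the 3 times is not stated, nor is the age for these libraries, and p-values measure the spread between these samples.

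*Zbtb24* lay below the control range in every B-CKO library. As a share of control, its B-CKO mean was 27.5% before culture, 62.0% after 24 h and 68.6% after 48 h (two-sided exact permutation p = 0.1 at each time, the smallest that 3 against 3 libraries allow). The control mean went from 45.4 to 17.6 and 15.2 FPKM (fragments scaled to transcript length and library size). The B-CKO mean went from 12.5 to 10.9 and 10.4 FPKM, so the share rose as control fell. B cell markers summed to 2045 to 5230 FPKM in all libraries, T cell markers to 0.41 to 7.03 and myeloid markers to 1.92 to 7.11. Erythroid markers summed to 6.61 to 46.2 FPKM at 0 h over both genotypes and to at most 3.88 later.

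*Ostc* (NCBI gene 66357; chr3:130695917-130709444 on GRCm38, minus strand, with 4 exons in its principal transcript) encodes a small membrane subunit of the STT3A complex. At 0 h it measured 47.5, 43.8 and 35.9 FPKM in the control libraries and 25.7, 21.2 and 23.2 in B-CKO. At 24 h the control libraries gave 86.7, 81.5 and 83.4 FPKM and B-CKO gave 32.2, 34.1 and 33.1. At 48 h the values were 116.6, 99.1 and 116 FPKM in control and 44.3, 42.9 and 49.4 in B-CKO. The groups did not overlap at any time, and the highest B-CKO library after 48 h of LPS stood just above the highest control library before culture.

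The B-CKO mean of *Ostc* came to 55.1% of the control mean before culture, 39.5% after 24 h of LPS and 41.2% after 48 h. On log2(FPKM + 1), the difference was -0.83 ± 0.13 (SE), -1.31 ± 0.03 and -1.26 ± 0.08. These values are what chose the gene and carry no test. In bulk RNA, less RNA in each cell and fewer cells with the RNA cannot be told apart. Without any 1 library the 0 h difference ranged from -0.94 to -0.74 and the later ones from -1.34 to -1.22.

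**Figure D1:**
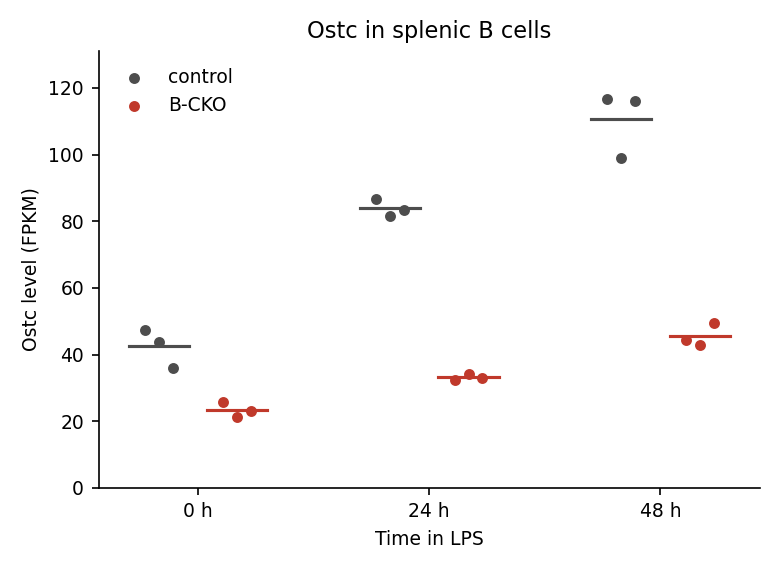
*Ostc* level (FPKM) in each of the 18 libraries at 0, 24 and 48 h of LPS; dots are libraries, bars are group means, grey is control and red is B-CKO. Control means went from 42.4 to 110.5 FPKM and B-CKO means from 23.4 to 45.5 FPKM, with no overlap between the groups at any time.

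*Ostc* RNA was higher after LPS in both genotypes, at different levels. In control cells the mean went from 42.4 ± 5.92 (SD, n = 3) to 83.8 ± 2.66 and 110.5 ± 9.95 FPKM, that is 1.98 times and then 1.32 times the level before. The control rise was tested, since it does not use the genotype contrast, and passed from 0 to 24 h (log2 0.98 ± 0.11 SE, limma adjusted p = 0.000365) and from 24 to 48 h (0.39 ± 0.07, adjusted p = 0.00323). Without control replicate 3 the second step was 0.35 and no longer passed (adjusted p = 0.0626). In B-CKO the mean went from 23.4 ± 2.25 to 33.1 ± 0.92 and 45.5 ± 3.40 FPKM, 1.42 times and then 1.37 times the level before. The log2 change from 0 to 24 h was smaller in B-CKO by 0.49 ± 0.14 and the change from 24 to 48 h differed by 0.05 ± 0.09, both given without a test.

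None of the 9 partners passed the test between B-CKO and control at 0, 24 or 48 h (limma on log2(FPKM + 1), Benjamini-Hochberg over all genes tested). Few genes of any kind passed in this fit. Among 15641 genes tested at 0 h, 0% passed as higher and 0% as lower, and 313 had an unadjusted p under 0.05. Among 15104 genes at 24 h, 0.0132% passed as higher and 0.0861% as lower, 15 in all, and among 15210 at 48 h 0.00657% and 0.0394%, 7 in all. A count of 0 among 9 partners is therefore near the background. Of the 9, *Rpn1* at 24 h alone had an unadjusted p under 0.05.

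The differences of the partners were small beside that of *Ostc*, and the intervals give what size was left possible. At 24 h, where libraries of a group were closest to each other, the partners' log2 differences ran from -0.07 (*Dad1*) to 0.10 (*Tmem258*), with a median of 0.02 against 0.00 over all genes. Their 95% confidence intervals lay between -0.19 and 0.21. At 48 h the differences ran from -0.03 to 0.10, within intervals from -0.22 to 0.31. At 0 h they ran from -0.11 (*Stt3b*) to 0.15 (*Tmem258*), and the intervals were wide, from -0.56 to 0.61. Same-numbered libraries of the genotypes deviated together at 0 h, and with the replicate number as a block the 0 h intervals were narrower, from -0.42 to 0.43. None passed with the block (adjusted p from 0.883 to 0.957). Within the 3 pairs *Rpn1* was higher in B-CKO in 3 and *Dad1* lower in 3, with blocked differences of 0.05 ± 0.04 and -0.11 ± 0.06.

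**Figure D2:**
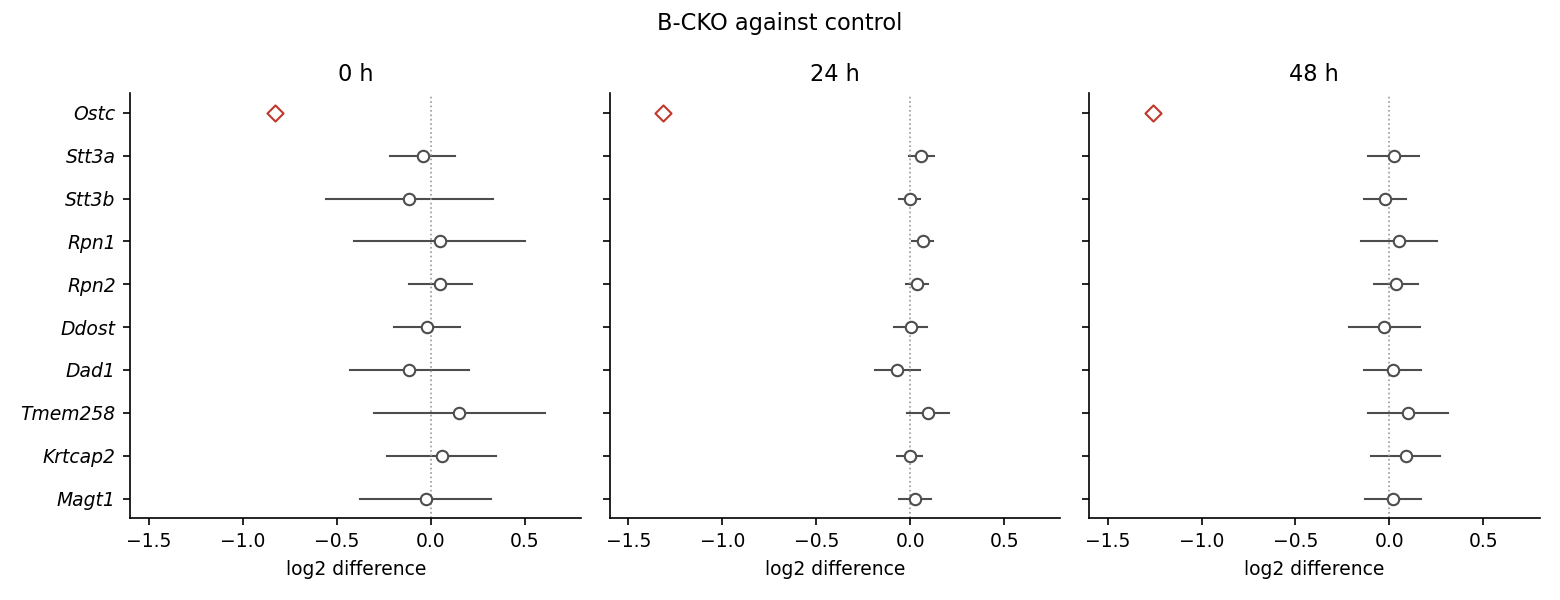
Difference between B-CKO and control in log2(FPKM + 1) for the 10 subunits at 0, 24 and 48 h; circles are limma estimates with 95% confidence intervals as lines, open where the adjusted p was 0.05 or more, and the red diamond is *Ostc*, given without a test or interval. The partners sit between -0.11 and 0.15, and *Ostc* between -1.31 and -0.83.

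*Stt3a*, the catalytic subunit of the complex that OSTC belongs to, was at 76.9, 74.3 and 79.0 FPKM in control and 79.5, 80.5 and 79.8 in B-CKO at 24 h. The B-CKO libraries were thus all slightly higher, by 0.06 ± 0.03 on the log2 scale (adjusted p = 0.356). At 0 h the means were 39.6 and 38.3 FPKM and at 48 h 92.1 and 93.4, and the groups overlapped. *Krtcap2*, the other subunit particular to the STT3A complex, measured 85.0, 89.8 and 89.6 FPKM in control and 87.5, 87.7 and 88.8 in B-CKO at 24 h. The B-CKO values lay inside the control range. The log2 differences of *Krtcap2* were 0.06, 0.00 and 0.09 at the 3 times (adjusted p from 0.85 to 1).

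The STT3B side showed the same lack of a called difference. *Stt3b*, the catalytic subunit of the other complex, averaged 61.7 FPKM in control against 61.6 in B-CKO after 24 h, and 65.3 against 64.2 after 48 h. The 95% interval of its log2 difference was -0.06 to 0.05 at 24 h. *Magt1*, an oxidoreductase that serves STT3B, was the lowest member in all 6 groups, from 13.4 to 32.7 FPKM over the libraries. Its log2 difference was -0.03, 0.02 and 0.02 at the 3 times (adjusted p from 0.793 to 1). *Tusc3*, which takes the place of MAGT1 in some complexes, stayed between 14.0 and 19.0 FPKM in all libraries and did not pass between the genotypes (adjusted p from 0.625 to 1).

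Among the shared subunits, *Rpn1*, which encodes ribophorin I, was at 87.0, 84.6 and 84.3 FPKM in control and 90.5, 88.7 and 89.1 in B-CKO at 24 h. Each B-CKO library was higher than each control library. The log2 difference was 0.07 ± 0.02 (limma adjusted p = 0.222, and from 0.145 to 1 over the alternatives). At 0 h *Rpn1* was 28.7, 25.6 and 20.0 FPKM in control and 30.3, 26.6 and 20.2 in B-CKO. There, same-numbered libraries of both genotypes lay close to each other. *Tmem258*, a small subunit of both complexes, was 129.5, 133 and 126 FPKM in control and 133, 148 and 134 in B-CKO at 24 h, and the groups again did not overlap (0.10 ± 0.05, adjusted p = 0.364).

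*Stt3a*, *Rpn1* and *Tmem258* were the 3 of 9 partners whose B-CKO libraries all lay above the control libraries at 24 h. Over all genes 8.43% did so at 24 h, and 11.8% of those averaging 1 FPKM or more, so that about 1 of 9 matches the background. No partner lay wholly below control at 24 h, as 11.7% of genes did. None was without overlap at 0 h (background 1.92% higher and 1.94% lower) or at 48 h (4.89% higher and 6.24% lower). Libraries of a group were closest at this time, with a median SD over genes at 24 h of 0.06 in control and 0.05 in B-CKO on the log2 scale, against 0.17 and 0.16 at 0 h.

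*Ddost*, *Rpn2* and *Dad1* overlapped between the genotypes at every time. *Ddost*, which encodes the OST48 subunit, averaged 103.7 FPKM in control against 103.9 in B-CKO after 24 h (log2 difference 0.00 ± 0.04). *Rpn2*, ribophorin II, had 103.6 and 106 FPKM (0.04 ± 0.02, adjusted p = 0.501). *Dad1*, named for the cell death seen on its loss, had 171.7 and 164 FPKM (-0.07 ± 0.05, adjusted p = 0.572). *Ost4*, a very small subunit outside the 9, was 176, 178 and 155 FPKM in control and 179, 188 and 187 in B-CKO at 24 h (0.13 ± 0.05, adjusted p = 0.318).

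**Figure D3:**
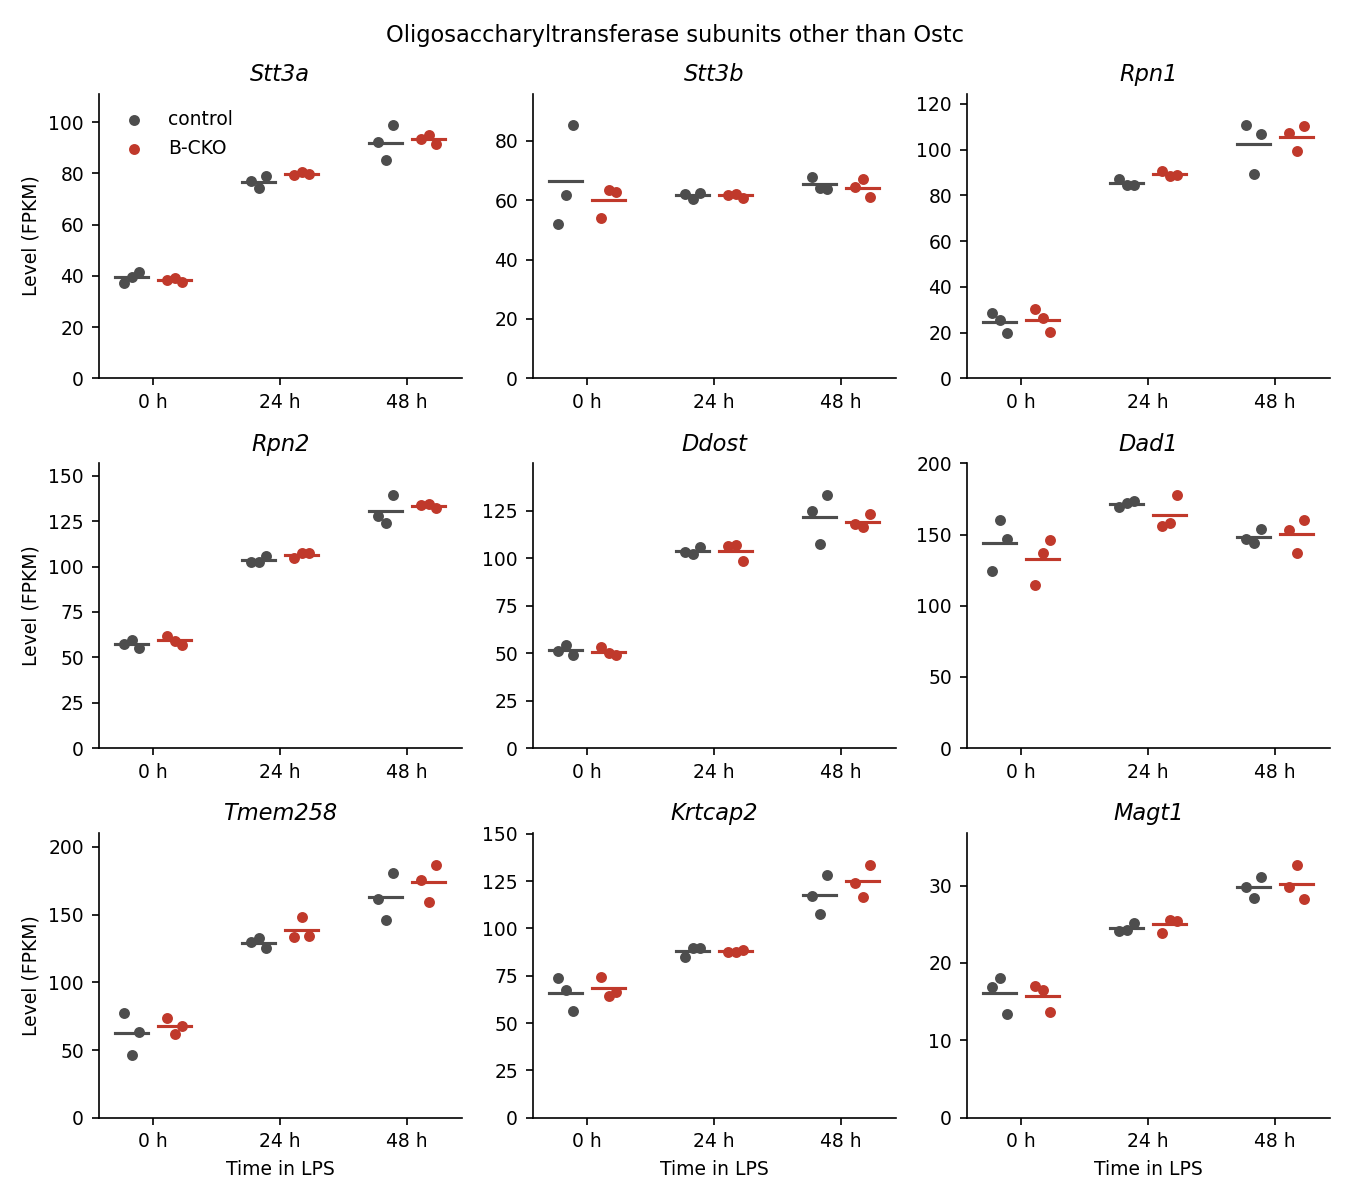
Level (FPKM) of the 9 partners in each library at 0, 24 and 48 h of LPS; dots are libraries, bars are group means, grey is control and red is B-CKO, and each panel has its own axis from 0. Control and B-CKO means lie close together in every panel, and no partner passed the test between genotypes.

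Most OST members rose with LPS in control cells. From 0 to 24 h, 8 of the 10 members rose and none fell, where 26.7% of the 15531 genes tested rose and 30.7% fell. Of the 9991 genes averaging 1 FPKM or more, fitted alone, 3882 rose and 3648 fell. In the same step all 5 T cell markers, 3 of 5 myeloid, 3 of 3 erythroid and 4 of 6 B cell markers fell, and 1 myeloid marker rose. Erythroid markers summed to 7.55 to 26.9 FPKM in control at 0 h and 0.24 to 3.88 at 24 h. Their part in the OST changes was not tested. The median log2 change of the members was 0.89, against -0.02 over all genes. *Rpn1* had the highest change, from a mean of 24.8 to 85.3 FPKM (1.76 ± 0.13, limma adjusted p = 6.65e-05). *Tmem258* (1.07 ± 0.18), *Ddost* (1.00 ± 0.05), *Ostc* (0.98), *Stt3a* (0.94 ± 0.06) and *Rpn2* (0.84 ± 0.05) followed. *Magt1* (0.59 ± 0.11) and *Krtcap2* (0.42 ± 0.10) rose less. *Krtcap2* missed the threshold when the values were rescaled to TPM (0.26, adjusted p = 0.0513) and without control replicate 2 (0.43, adjusted p = 0.115).

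The catalytic subunits parted in this step. *Stt3a* went from 37.4, 39.7 and 41.7 to 76.9, 74.3 and 79.0 FPKM in control, while *Stt3b* went from 51.9, 61.7 and 85.2 to 62.1, 60.5 and 62.5. The *Stt3b* change was -0.07, with an interval from -0.49 to 0.35 (adjusted p = 0.742). Control replicate 3 was the highest library at 0 h, and without control replicate 3 the change was 0.11. The ratio of *Stt3a* to *Stt3b* FPKM within a library was 0.49 to 0.72 in control at 0 h, 1.23 to 1.26 at 24 h and 1.33 to 1.55 at 48 h. *Dad1* gave 0.26 ± 0.09 without passing (adjusted p = 0.0539), and passed when genes under a mean of 1 FPKM were left out (adjusted p = 0.0394). *Ost4* rose (0.71 ± 0.07, adjusted p = 0.000217), and *Tusc3* gave 0.10 ± 0.10 (adjusted p = 0.463).

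From 24 to 48 h, 7 of the 10 rose and *Dad1* fell, where 20.1% of 15178 genes rose and 24.8% fell. Of the 9821 genes averaging 1 FPKM or more, fitted alone, 2627 rose and 3719 fell. The members' steps were smaller than the first, with a median of 0.26. *Krtcap2* rose by 0.41 ± 0.06, followed by *Ostc* (0.39), *Rpn2* (0.33 ± 0.05), *Tmem258* (0.32 ± 0.08), *Magt1* (0.27 ± 0.04), *Stt3a* (0.26 ± 0.06) and *Rpn1* (0.25 ± 0.08). *Dad1* fell by 0.21 on the log2 scale, from 171.7 to 148 FPKM (adjusted p = 0.00232). *Ddost* (0.22 ± 0.08, adjusted p = 0.0504) and *Stt3b* (0.08 ± 0.03, adjusted p = 0.101) did not pass. This count moved when 1 control replicate number was left out, its 24 h and 48 h libraries together. It was 5 without control replicate 1 (*Stt3a*, *Rpn1* and *Tmem258* were lost) and 5 without control replicate 3 (*Ostc*, *Rpn1* and *Tmem258* were lost), and 9 without control replicate 2, the lowest of the 48 h controls for 9 members.

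**Figure D4:**
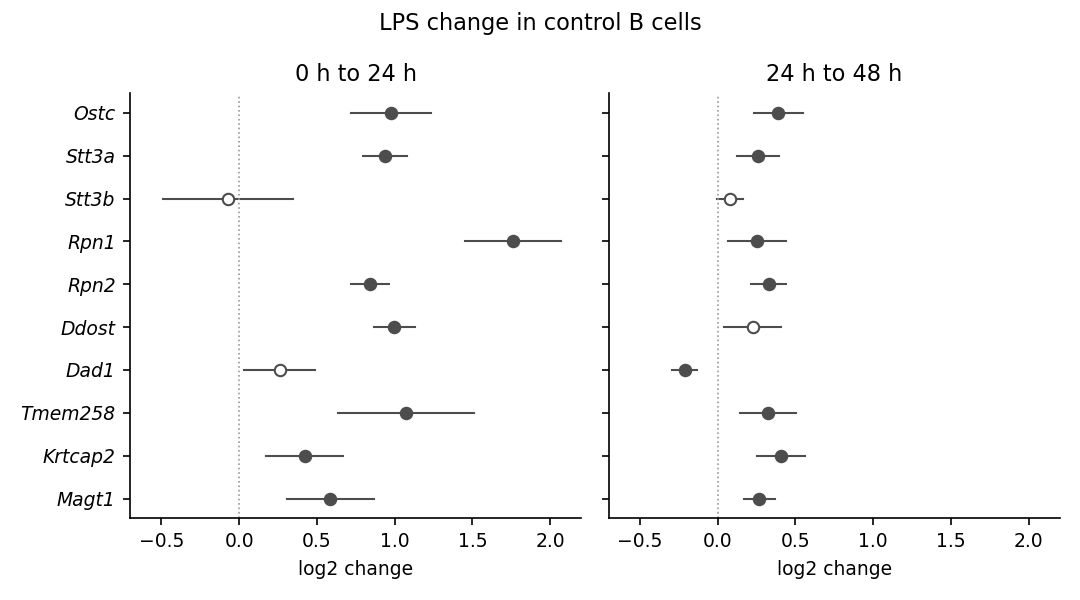
Change in log2(FPKM + 1) of the 10 subunits in control B cells from 0 to 24 h and from 24 to 48 h of LPS; circles are limma estimates with 95% confidence intervals, filled where the adjusted p was under 0.05. In the first step *Rpn1* is highest at 1.76 and *Stt3b* lies at -0.07, and in the second step *Dad1* alone is filled below 0, at -0.21.

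The LPS changes of the 9 partners were not shown to differ between the genotypes. No partner passed the interaction test for 0 to 24 h or 24 to 48 h, and neither did any gene (0% of 16182 and 0% of 15844 tested, with 467 and 1158 genes at an unadjusted p under 0.05). The partners' interaction values ran from -0.06 to 0.11 in the first step and from -0.03 to 0.09 in the second. The widest intervals were -0.53 to 0.42 (*Tmem258*) and -0.24 to 0.25 (*Tmem258*). The 24 h mean of *Stt3a* was 1.94 times its 0 h mean in control and 2.08 times in B-CKO, and that of *Rpn1* 3.45 and 3.48 times.

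The proportion of *Ostc* to its partners within a library followed from these values. As *Ostc* was chosen by its fall, the ratios are a description. *Ostc* per *Stt3a* was 1.08 ± 0.21 (SD, n = 3), 1.09 ± 0.04 and 1.20 ± 0.05 at the 3 times in control. In B-CKO the same ratio was 0.61 ± 0.06, 0.41 ± 0.01 and 0.49 ± 0.05. *Ostc* and *Stt3a* thus kept a near equal FPKM through LPS in control cells. *Ostc* per *Krtcap2* went from 0.64 ± 0.01 to 0.95 ± 0.06 and 0.94 ± 0.05 in control, and stayed at 0.34 ± 0.01, 0.38 ± 0.01 and 0.36 ± 0.01 in B-CKO. The same ratio between the partners *Krtcap2* and *Stt3a* after 24 h was 1.15 ± 0.05 in control against 1.10 ± 0.01 in B-CKO.

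**Figure D5:**
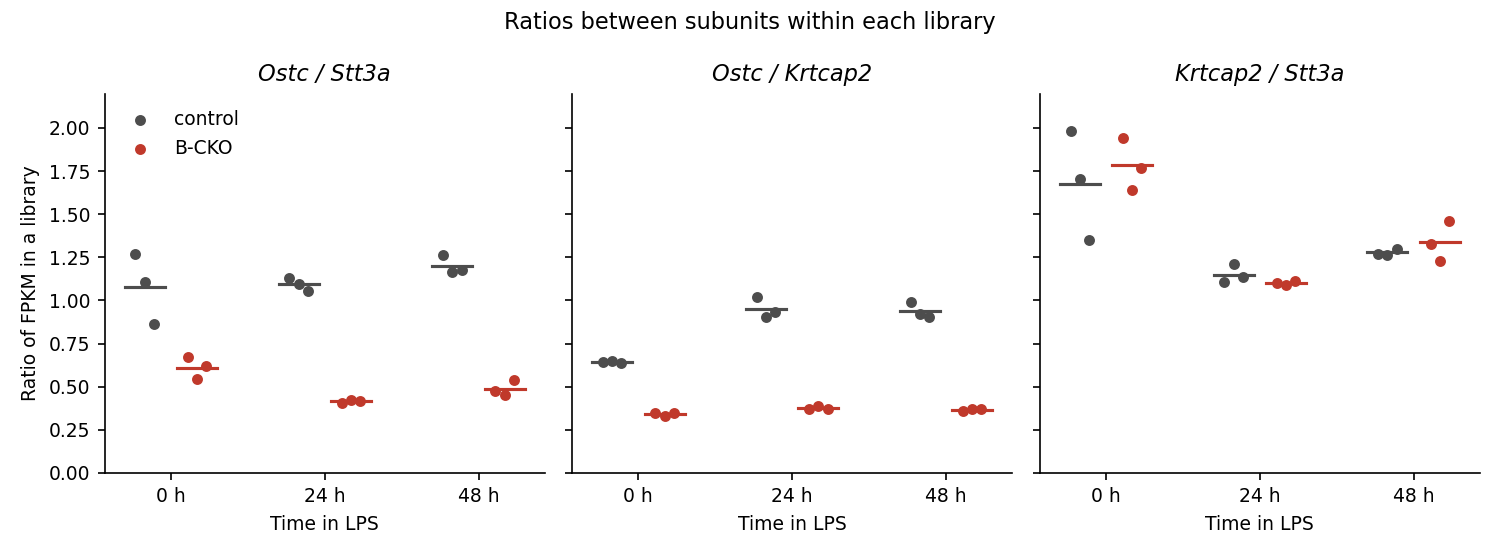
Ratio of FPKM between subunits within each library at 0, 24 and 48 h; dots are libraries, bars are group means, grey is control and red is B-CKO. *Ostc* per *Stt3a* and *Ostc* per *Krtcap2* are lower in every B-CKO library, and *Krtcap2* per *Stt3a* overlaps between the genotypes at all 3 times.

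By level per length, *Dad1* was the highest member at 0 h in control (144 FPKM) and *Tmem258* at 48 h (162.7 FPKM), with *Magt1* last throughout. The control order at 0 h below *Dad1* was *Stt3b*, *Krtcap2*, *Tmem258*, *Rpn2*, *Ddost*, *Ostc*, *Stt3a*, *Rpn1* and *Magt1*. *Stt3b*, *Krtcap2* and *Tmem258* were not above the next gene in every library, and neither was *Ostc* above *Stt3a*. In control *Ostc* ranked 7 or 8 of 10 at 0 h and 6 in every library at 48 h. In B-CKO it ranked 8 or 9 at 0 h and 9 in every library after LPS, above *Magt1* alone.

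Other genes of the pathway were read from lists. Lipid-linked oligosaccharide synthesis builds the sugar tree that OST transfers. None of its 23 genes passed between genotypes at any time, and the smallest adjusted p was that of the glucosyltransferase *Alg5* at 24 h (-0.14 ± 0.06, adjusted p = 0.31). By unadjusted p the first were *Dpm2* (0.15 ± 0.04, adjusted p = 0.38) and the dolichol synthesis gene *Srd5a3* (0.25 ± 0.10, adjusted p = 0.611) at 48 h. *Dpm2*, part of the dolichol-phosphate-mannose synthase, was at 29.2, 28.1 and 28.9 FPKM in control and 31.7, 31.3 and 32.8 in B-CKO at 48 h. In control cells 10 of the 23 rose and 2 fell from 0 to 24 h (26.7% and 30.7% of all genes did), led by the glucosyltransferase *Alg8* (1.52) and the mannosyltransferase *Alg3* (1.45). Of the 9991 genes averaging 1 FPKM or more, fitted alone, 3882 rose and 3648 fell, so the share that rose is close to that background. From 24 to 48 h 3 of the 23 rose and 7 fell (20.1% and 24.8% of all genes), close to the background, *Alg3* by 0.98 on the log2 scale.

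The ER translocon is the channel through which nascent chains enter. Of its 10 genes, 7 rose and 2 fell from 0 to 24 h in control, against 26.7% and 30.7% of all genes. From 24 to 48 h 9 rose and none fell, against 20.1% and 24.8%. *Sec61b*, a subunit of the channel, went from a mean of 59.9 FPKM to 132.8 and 209. None passed between the genotypes, and the nearest was *Sec61g*, another channel subunit, with 70.8, 64.2 and 59.7 FPKM in control and 75.6, 76.9 and 77.2 in B-CKO at 24 h (0.24 ± 0.06, adjusted p = 0.134).

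Of 12 genes of ER glycan trimming and lectins, 6 rose and 4 fell from 0 to 24 h, where 26.7% and 30.7% of all genes did. From 24 to 48 h 3 rose and 3 fell, near the 20.1% and 24.8% of all genes. *Mogs*, the glucosidase that makes the first cut after transfer, rose by 1.62 and then fell by 0.51 on the log2 scale. None passed between the genotypes, the nearest being *Edem1* (-0.14 ± 0.04, adjusted p = 0.159) and *Edem2* (-0.10 ± 0.04, adjusted p = 0.251) at 24 h, both of ER-associated degradation. Of 10 genes of the ER stress response, none passed between the genotypes. *Herpud1*, an ER stress target, was nearest (-0.14 ± 0.03 at 24 h, adjusted p = 0.122). From 0 to 24 h (26.7% of all genes up and 30.7% down) 5 rose, among them *Sdf2l1* (2.50), and 4 fell, among them *Ddit3* (-3.27) and *Dnajb9* (-2.86). From 24 to 48 h (20.1% up and 24.8% down) 5 rose and none fell.

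Plasma cell markers rose in the step in which 7 OST members rose, *Dad1* fell and *Ddost* and *Stt3b* did not pass. All 5 rose from 24 to 48 h, against 20.1% of all genes, with *Jchain*, the joining chain of secreted antibody, at 1.69, and their summed level in control went from 338 to 387 FPKM at 24 h to 582 to 878 at 48 h. In B-CKO the sum was 368 to 387 at 24 h and 720.5 to 854 at 48 h. The most abundant marker carries most of this sum. None of the 5 passed between the genotypes at any time. *Sdc1*, the surface marker CD138, was 5.53, 5.42 and 6.11 FPKM in control and 3.89, 2.89 and 4.29 in B-CKO at 0 h (-0.52 ± 0.16, limma adjusted p = 1). At 48 h it was 3.08, 2.23 and 3.22 FPKM in control and 1.52, 1.91 and 2.00 in B-CKO (-0.45 ± 0.13, adjusted p = 0.428), without overlap at either time. Over all genes 1.94% lay wholly below control at 0 h and 6.24% at 48 h. The 24 h difference of *Sdc1* was -0.12 ± 0.15. The 5 markers went both ways, with 2, 1 and 2 of them above 0 at 0, 24 and 48 h. *Mzb1* was higher in B-CKO at each time (0.23, 0.10 and 0.14) and *Prdm1* at 48 h (0.13). From 0 to 24 h, where most OST members had their larger rise, 3 markers rose and 2 fell, against 26.7% and 30.7% of all genes. Their part in the OST changes was not tested.

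Of the measured genes nearest *Ostc* on either side on chromosome 3, *Rpl34* gave no called difference at any time. *Gm42998*, which overlaps *Ostc* on the same strand, was not measured. *Rpl34*, a ribosomal protein gene 17382 bp away, measured 1201 to 1293 FPKM in control and 1317 to 1359 in B-CKO at 24 h (0.08 ± 0.04, adjusted p = 0.408). *Col25a1*, 96032 bp away on the other side, was at or near 0 FPKM, too low to show a difference.

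The genes whose pattern over the 18 libraries was most like *Ostc*, once the mean of each time was subtracted, included *Taf6* (Pearson r = 0.97), *Cdca7* (0.97), *Cdc40* (0.93) and *Rnf187* (0.93), among 9996 genes that averaged 1 FPKM or more. The libraries share genotype and scaling, so r describes likeness only, and the fall of *Ostc* in B-CKO sets most of it. *Taf6*, a subunit of the general transcription factor TFIID, had B-CKO means of 59.3%, 44.5% and 46.6% of control at the 3 times. *Cdca7*, of a chromatin remodelling complex, had 15.1%, 25.3% and 23.4%. *Cdc40*, a splicing factor, had 59.2%, 61.1% and 62.9%, and *Rnf187*, a ubiquitin ligase, 67.2%, 72.3% and 66.4%. The 9 partners had r from -0.34 (*Rpn2*) to 0.21 (*Ddost*) with *Ostc* on the same measure. Without the subtraction the first 5 were *Taf6*, *Rnf187*, *Cdca7*, *Gpr55* and *Kdm8*, and the partners had r from 0.09 (*Stt3b*) to 0.63 (*Ddost*).

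ZBTB24 is known to bind the letters CAGGACCT. In RefSeq promoter windows on GRCm38.p6, from 250 bases before to 50 after each start, these letters on either strand stood in 653 of 32851 windows (1.99%). They stood in none of the 12 windows of the 9 partners, and in 4 of 5 windows of the 4 like genes that have one. The windows of *Gpr55* and *Kdm8*, among the first genes only without the subtraction, did not hold them. *Ostc* had no window. At this share about none of 12 windows would hold the letters, so their absence from the partners is near the background, and the like genes were picked on a measure that follows the fall of *Ostc* in B-CKO. No difference between these sets of windows was tested. The matches are shown 5′ to 3′ on the strand of each gene, with the motif or its reverse complement in capitals. Such a match is not a measured site.
*Cdca7*, chr2:72476119-72476148, plus strand: atcttagctggCAGGACCTgcgtcccggcg
*Taf6*, chr5:138187388-138187417, minus strand: gcgccttctgaAGGTCCTGacagctgggta
*Taf6*, chr5:138187222-138187251, minus strand: ttggcttctgcCAGGACCTactcctgtcag
*Cdc40*, chr10:40883286-40883315, minus strand: tttaatcaacgAGGTCCTGaaagttacaaa
*Cdc40*, chr10:40883123-40883152, minus strand: tgacaatctgaCAGGACCTgggagacgctg
*Rnf187*, chr11:58938948-58938977, minus strand: tgcgcagctgcCAGGACCTggacgtcagag

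The first bases of these motifs stood at -89 from the start in *Cdca7*, -180 and -14 in *Taf6*, -161 and 3 in *Cdc40* and -60 in *Rnf187*. The letters of the ER stress element (CCAAT, 9 bases, CCACG) and the core TGACGTG, to which ER stress factors bind, stood in no partner window, against 0.119% and 2.01% of all windows. No match says only that these letters are not in these windows. The letters CCAAT alone stood in at least 1 window of 8 of the 9 partners, and in 37.4% of all windows. The first value counts genes and the second windows, and no difference was tested.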

How the data were processed

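RNA of sorted splenic B cells was sequenced as paired reads. The authors mapped them to mm10 with Bowtie2 and deposited FPKM with 2 decimals for 16545 genes by NCBI gene ID, made with Cufflinks and RSEM per the study's methods. The submitters' processing notes also name BWA and DESeq2. Versions, annotation and the use of strand are not given in the sources used here. Counts were not used, so that the DESeq2 test of the study was not repeated. *Rpn2*, *Tmem258*, *Krtcap2* and *Ost4* overlap a gene of the opposite strand that is also in the table (*Mroh8*, *Fen1*, *Trim46* and *Agbl5*), and their reads cannot be told apart without strand.

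RefSeq on GRCm38.p6 gave symbols for 16512 IDs. Absolute depth is unknown. Low genes whose values above 0 fell in a single step (116 genes, highest under 1.4 times the lowest) gave relative depths of 0.88 to 0.93 at 0 h and 0.99 to 1.08 later.

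limma 3.58.1 (R 4.3.3; lmFit, eBayes with trend, two-sided) was run on log2(FPKM + 1) over genes above 0 in any compared library, with Benjamini-Hochberg adjustment and a threshold of 0.05. Fold changes are on that scale and understate those of low genes. Each comparison used its own groups. The fits were also run on simulated data as a check of the estimated changes, and no power or error rate is taken from that run. Same-numbered control and B-CKO libraries deviated together at 0 h (r = 0.86, 0.48 and 0.80), which pairs them there. The pairing comes from the data alone. All members, *Ost4*, *Tusc3*, the neighbours of *Ostc*, the 5 genes most like it and the first genes by p of each list were to be named, and other genes named for LPS changes were chosen after their values were seen. One gene that the rule names is not reported here. Members and lists were chosen with earlier results of these data known. Alternatives were another pseudocount, a filter at 1 FPKM, TPM, median ratio scaling, a replicate block and a fit of all 18 libraries. Each replicate number of a genotype was also left out, at every time compared.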

Additional observations from a re-analysis of the deposited data

How the results depend on the processing

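No partner of *Ostc* passed the test between genotypes or for interaction under any alternative run, and *Ostc* was lower in B-CKO in each. The smallest adjusted p of a partner was 0.12 (*Tmem258* at 24 h, replicate block with genes of at least 1 FPKM). Counts over all genes moved more. With genes of at least 1 FPKM, 2, 388 and 29 genes passed between genotypes at 0, 24 and 48 h in place of 0, 15 and 7, and with a pseudocount of 0.1 46 passed at 24 h. The fit of all 18 libraries gave 23, 10 and 11. Leaving out 1 library gave 0 to 1, 5 to 8 and 0 to 6. From 24 to 48 h in control, 6820 genes passed, 4992, 5040 and 4496 without replicates 1, 2 and 3. The cause of these shifts was not tested.

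The replicate block gave 0, 5 and 3 genes, and with the filter at 1 FPKM 22, 704 and 116. It changed no call of a partner between genotypes. In the LPS steps it moved only *Ddost* from 24 to 48 h past the threshold (adjusted p = 0.0437). At 24 h same-numbered libraries had r of 0.08, 0.20 and 0.10 and each control library was closest to its own number. At 48 h r was -0.02, 0.22 and 0.24 and control replicate 1 was not.

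The LPS counts of members were 7 to 9 from 0 to 24 h and 6 to 10 from 24 to 48 h over the alternatives that keep all libraries, and 7 to 8 and 5 to 9 with 1 control number left out. The fit of all 18 libraries lost *Rpn1*, *Dad1* and *Tmem258* from 24 to 48 h (adjusted p = 0.173, 0.114 and 0.0941) and passed *Ddost* (0.0188), and median ratio scaling passed *Stt3b* (0.14, adjusted p = 0.0183).

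Signs turned for small differences that did not pass. TPM gave *Ddost* -0.010 at 24 h, *Stt3a* -0.00025, *Dad1* -0.0063 and *Magt1* -0.0023 at 48 h, and *Tmem258* -0.0097 for interaction from 24 to 48 h. Median ratio scaling gave *Stt3b* 0.012 and *Krtcap2* 0.013 at 24 h and *Tmem258* -0.0063 for that interaction. Leaving out 1 replicate number of 1 genotype gave these log2 ranges. Between genotypes this took away 1 library, and in an LPS step or interaction that number's libraries at both times.
Between genotypes at 0 h they were -0.27 to 0.080 for *Stt3b*, -0.093 to 0.20 for *Rpn1*, -0.056 to 0.017 for *Ddost*, -0.047 to 0.32 for *Tmem258*, -0.051 to 0.14 for *Krtcap2* and -0.15 to 0.065 for *Magt1*. Between genotypes at 24 h they were -0.016 to 0.0067 for *Stt3b*, -0.017 to 0.040 for *Ddost* and -0.028 to 0.012 for *Krtcap2*. Between genotypes at 48 h they were -0.031 to 0.076 for *Stt3a*, -0.056 to 0.010 for *Stt3b*, -0.042 to 0.11 for *Rpn1*, -0.12 to 0.040 for *Ddost*, -0.030 to 0.082 for *Dad1* and -0.034 to 0.067 for *Magt1*. From 0 to 24 h in control they were -0.23 to 0.11 for *Stt3b*. For interaction from 0 to 24 h they were -0.073 to 0.27 for *Stt3b*, -0.14 to 0.15 for *Rpn1*, -0.047 to 0.030 for *Rpn2*, -0.025 to 0.072 for *Ddost*, -0.033 to 0.14 for *Dad1*, -0.22 to 0.16 for *Tmem258*, -0.17 to 0.060 for *Krtcap2* and -0.053 to 0.19 for *Magt1*. For interaction from 24 to 48 h they were -0.048 to 0.0046 for *Stt3b*, -0.10 to 0.029 for *Rpn1*, -0.030 to 0.030 for *Rpn2*, -0.11 to 0.024 for *Ddost*, -0.093 to 0.11 for *Tmem258*, -0.041 to 0.056 for *Magt1* and -0.0056 to 0.11 for *Ostc*.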
